A study of Mus musculus with 6 samples.

Results

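Circadian clock genes were compared between hippocampi of p300-deficient heterozygous mice (p300+/-) and of wild-type mice; p300, encoded by Ep300, is a lysine acetyltransferase. The 10 genes were Per1, Per2, Per3, Cry1, Cry2, Arntl (also called Bmal1), Clock, Nr1d1, Nr1d2 and Dbp, and every probe set annotated to a single gene among them was used, 23 of the 45037 tested. The p300+/- group consisted of heterozygous p300-deficient females, and the Wild-type group of their female littermates, all aged 3 months, of strain C57BL/6, and kept under 12 h of light and 12 h of dark. Hippocampal RNA of 4 animals was pooled for each Affymetrix Mouse Genome 430 2.0 array, with 3 arrays and 12 animals per genotype. Neither the construction of the p300 allele nor the clock time of dissection is stated in the sources used here. Each pool is an average over animals, and the differences below are between pools.

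The circadian clock is a transcriptional feedback loop that runs in most cells. The bHLH-PAS proteins CLOCK and BMAL1 bind E-boxes as a dimer and activate the Per and Cry genes, whose products return to the nucleus and repress that dimer. The same dimer drives Nr1d1 and Nr1d2, nuclear receptors (REV-ERB alpha and beta) that repress Arntl, and Dbp, a PAR bZIP factor that acts on D-boxes. Arntl RNA therefore runs in antiphase to Nr1d1, Dbp and the Per genes in tissues with a running clock, the hippocampus among them. p300 and its relative CBP are known as coactivators of CLOCK and BMAL1. Per1 is in addition an immediate early gene of CREB in neurons and a target of the glucocorticoid receptor.

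Promoter sequences of some members are shown here as background, and their part in the array values was not tested. Promoters of 300 bases, from 250 bases before to 50 after a gene's start, came from RefSeq (GRCm38.p6). They covered 9 of the 10 genes with 13 promoters; Per2 had none in that table. Capitals mark the motifs found on either strand, 5′ to 3′. The D-box was searched as TTATGTAA, the E-box as CACGTG, the E-prime box, a variant of the E-box, as CACGTT, the cAMP response element as TGACGTCA, and the ROR element, which REV-ERB and ROR receptors share, by its usual consensus. No 2 of these motifs overlapped in the promoters printed.
Per3 promoter, chr4:151044616-151044915, minus strand: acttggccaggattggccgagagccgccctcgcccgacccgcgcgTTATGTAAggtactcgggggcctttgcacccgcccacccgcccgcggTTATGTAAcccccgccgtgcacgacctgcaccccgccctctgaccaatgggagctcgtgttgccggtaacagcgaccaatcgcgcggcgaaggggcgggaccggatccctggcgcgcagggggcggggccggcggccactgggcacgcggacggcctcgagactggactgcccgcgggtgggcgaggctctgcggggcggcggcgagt
Arntl promoter, chr7:113207261-113207560, plus strand: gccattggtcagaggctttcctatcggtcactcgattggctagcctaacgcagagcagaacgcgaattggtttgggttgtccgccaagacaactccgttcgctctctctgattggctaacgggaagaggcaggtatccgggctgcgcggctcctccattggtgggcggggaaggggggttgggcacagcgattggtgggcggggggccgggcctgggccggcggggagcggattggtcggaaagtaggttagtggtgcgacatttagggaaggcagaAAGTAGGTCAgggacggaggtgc
Cry1 promoter, chr10:85185005-85185304, minus strand: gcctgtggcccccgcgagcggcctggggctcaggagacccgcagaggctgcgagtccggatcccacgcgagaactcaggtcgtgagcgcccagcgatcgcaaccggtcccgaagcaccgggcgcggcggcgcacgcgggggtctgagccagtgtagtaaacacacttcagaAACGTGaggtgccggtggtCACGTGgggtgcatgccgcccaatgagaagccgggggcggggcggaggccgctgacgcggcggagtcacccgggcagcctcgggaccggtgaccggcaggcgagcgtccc
Per1 promoter, chr11:69098699-69098998, plus strand: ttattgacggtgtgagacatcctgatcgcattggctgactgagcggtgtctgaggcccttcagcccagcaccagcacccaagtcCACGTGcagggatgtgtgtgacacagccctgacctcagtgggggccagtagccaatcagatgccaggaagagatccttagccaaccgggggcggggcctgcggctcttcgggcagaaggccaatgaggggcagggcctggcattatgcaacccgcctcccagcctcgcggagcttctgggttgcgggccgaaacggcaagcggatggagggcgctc
The Per3 promoter held 2 D-boxes, beginning 205 and 158 bases before the start, a motif present in 0.938% of the 32851 promoters of that length. The Arntl promoter held a ROR element that begins 27 bases after the start, a motif present in 0.773% of promoters. The Cry1 promoter held an E-box at 60 and an E-prime box at 79 bases before the start, and the first of these motifs was present in 7.15% of all promoters and the second in 4.68%. The Per1 promoter shown held an E-box 166 bases before the start. An E-prime box was also found in the promoters of Cry2 and Nr1d1, at 166 and 28 bases before the start, and a cAMP response element in none of the 13 (1.79% of all promoters). For Dbp, Clock and Nr1d2 none of these letters lay in the window.

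The deposited values, taken as log2 intensities, have the 6-array median of each probe set taken off, so levels of different genes cannot be compared. Ep300, the targeted gene, was at -0.26, -0.22 and -0.50 in p300+/- arrays 1 to 3, against 0.22, 0.38 and 0.40 in Wild-type arrays 1 to 3. The groups did not overlap, but with an adjusted p of 0.9999 (limma) the difference of -0.66 ± 0.13 (SE) missed the threshold of 0.05. A pair of arrays, p300+/- 3 and Wild-type 2, stood apart from the other 4. On the first principal component, which held 52.4% of the variance over all probe sets, they scored 43.3 and 55.6, while the others lay between -30.7 and -12.6. Wild-type 2 was also poor in choroid plexus transcripts, with a mean of -2.54 over 10 markers of that epithelium, against -0.17 to 0.35 in the other 5 arrays. As coarse level classes, read from the binary grid of the values, 8 clock probe sets were in the class from 8 to 16, 14 in that from 4 to 8, none in the lowest, from 2 to 4, and 1 was not assigned.

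No clock gene passed the test between genotypes. None of the 23 probe sets reached an adjusted p under 0.05 (limma, 0% of all probe sets tested), and all had an adjusted p of 0.9999. At an unadjusted p under 0.05 there were 0, against 1.22% of all probe sets. The smallest unadjusted p was 0.151, for the Clock probe set 1439314_at. Values were higher in p300+/- for 12 probe sets and lower for 11, with a median log2 fold change of 0.006, beside 0.0057 over all probe sets. The fold changes ran from -0.33 to 0.39. With 3 arrays a group an exact two-sided permutation test of a single probe set cannot give a p below 0.1, and the number of arrays limits the precision.

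**Figure D1:**
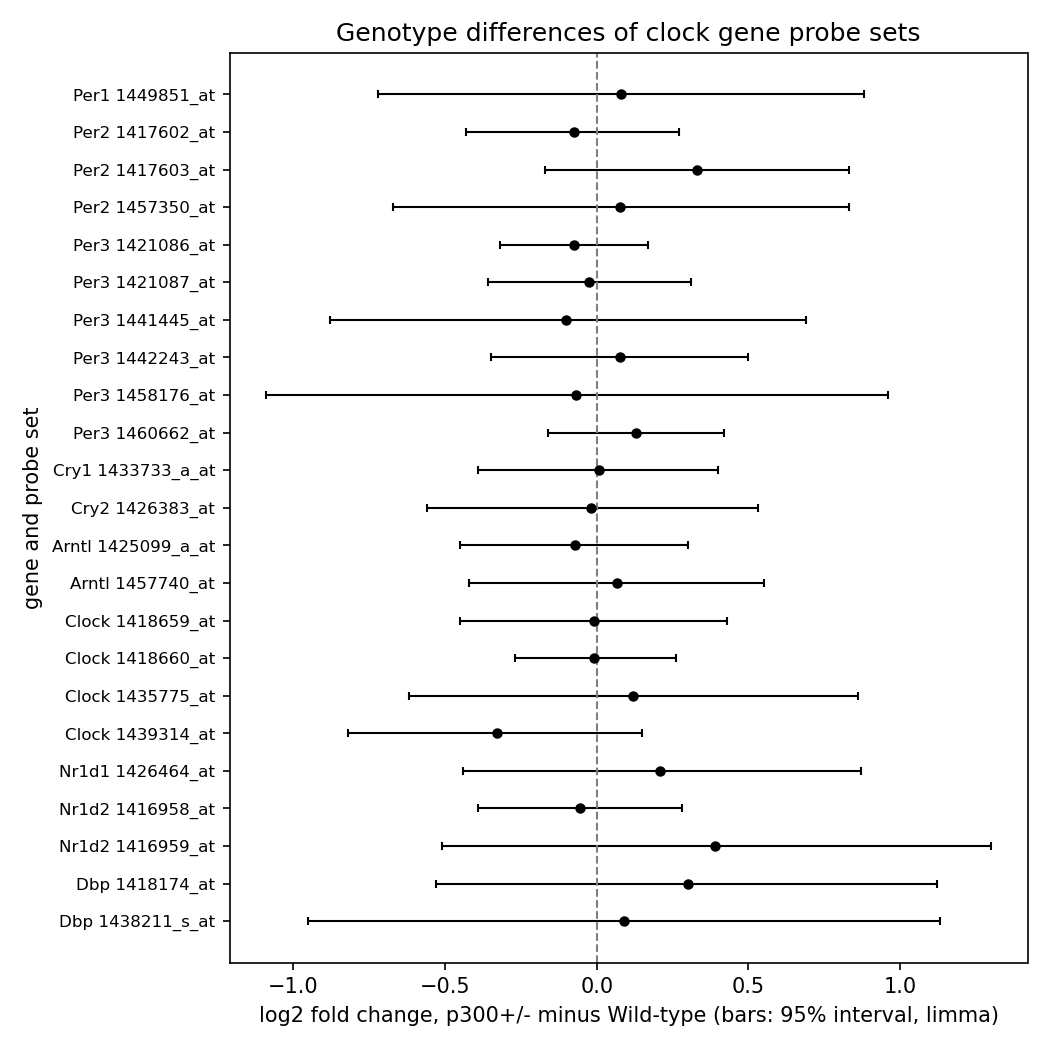
Log2 fold change, p300+/- minus Wild-type, of the 23 clock gene probe sets (x axis), 1 row per gene and probe set; points are limma estimates from 3 arrays a genotype and bars are 95% intervals. All intervals include 0, and the widest belong to Per3 1458176_at, Dbp 1438211_s_at and Nr1d2 1416959_at.

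The genotypes failed to overlap in 1 of the 23 probe sets (4.35%), against 5.39% of all probe sets, 3.19% with p300+/- higher and 2.2% with p300+/- lower. That was 1421086_at of Per3, where the p300+/- values of -0.0024, -0.0056 and -0.085 lay below the Wild-type values of 0.016, 0.0024 and 0.11. Its range over all 6 arrays, 0.20, was the smallest of the 23 probe sets, and its log2 fold change was -0.075 ± 0.11 (SE; limma, adjusted p = 0.9999). The gap vanished after quantile normalization or median centring of the arrays. With both p300+/- 3 and Wild-type 2 left out, 6 of the 23 did not overlap, where 28.3% of all probe sets did not.

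**Figure D2:**
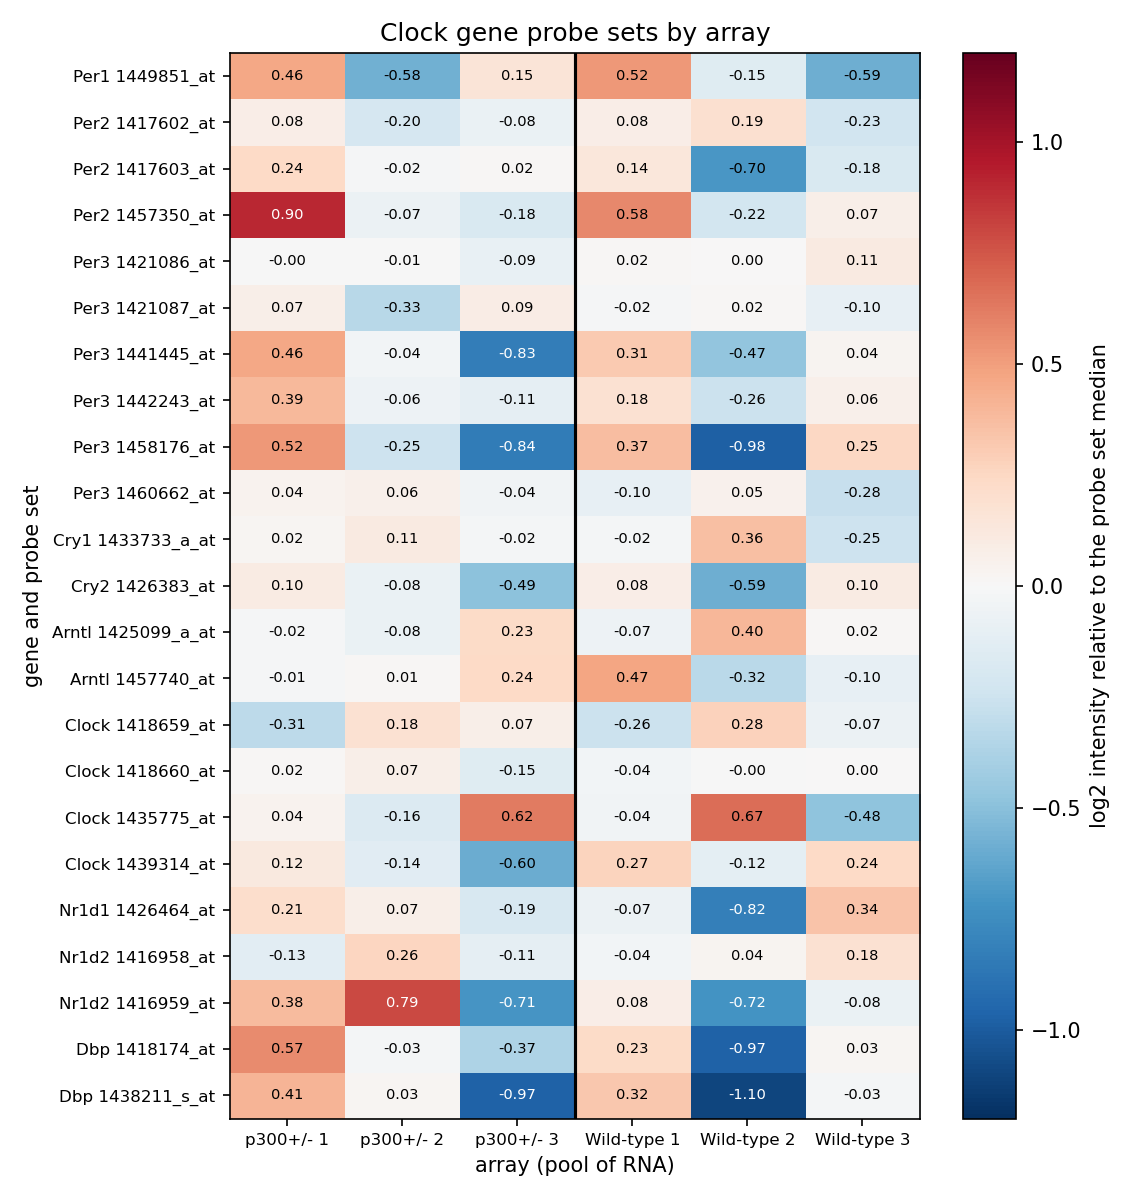
Values of the 23 clock gene probe sets (rows) on the 3 p300+/- and 3 Wild-type arrays (columns); colour and printed number give the log2 intensity with the row's median taken off. The lowest values of Dbp, Cry2 and several Per3 probe sets stand in the columns p300+/- 3 and Wild-type 2, and the highest values of both Dbp probe sets in p300+/- 1.

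Dbp, the output gene with the largest daily swing in many tissues, was among the members with the widest ranges, 1.54 and 1.51 for its 2 probe sets. Its probe set 1438211_s_at was at 0.41, 0.025 and -0.97 in the 3 p300+/- pools and at 0.32, -1.10 and -0.025 in the 3 Wild-type pools. Its other probe set, 1418174_at, was at 0.57, -0.025 and -0.37 in p300+/- and at 0.23, -0.97 and 0.025 in Wild-type pools. In both, p300+/- 1 was highest and Wild-type 2 lowest, p300+/- 3 was next to lowest, and the genotypes overlapped throughout. The value of 1438211_s_at in p300+/- 3 was matched or undercut by 0.853% of all probe sets on that array, and that in Wild-type 2 by 0.917%. The group means of 1438211_s_at were -0.18 ± 0.71 in p300+/- and -0.27 ± 0.74 in Wild-type pools (SD, n = 3 each). Its log2 fold change was 0.09 ± 0.45 (SE; 95% interval -0.95 to 1.13; limma, adjusted p = 0.9999). For 1418174_at the log2 fold change was 0.30 ± 0.35, and without Wild-type 2 it was -0.069.

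The Per genes encode the repressors that, with the CRY proteins, close the loop. Per1 had a single probe set, 1449851_at, at 0.46, -0.58 and 0.15 in p300+/- pools and at 0.52, -0.15 and -0.59 in Wild-type pools. A pool of each genotype was high (p300+/- 1 and Wild-type 1) and a pool of each was low (p300+/- 2 and Wild-type 3). The log2 fold change of 0.079 ± 0.34 (SE) was small beside the range of 1.11 over the arrays, and it turned to -0.15 without p300+/- 1 and to -0.18 without Wild-type 3. The order of arrays in Per1 thus differed from that in Dbp, in which the lowest were Wild-type 2 and p300+/- 3.

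Per2 was read by 3 probe sets that did not agree in order. Its probe set with the widest range, 1457350_at, was at 0.90, -0.068 and -0.18 in p300+/- and at 0.58, -0.22 and 0.068 in Wild-type pools. As for Per1, the number 1 pool of each genotype was high. In 1417603_at the p300+/- values were 0.24, -0.016 and 0.016, against 0.14, -0.70 and -0.18 in Wild-type pools. Wild-type 2 was the lowest array, and the log2 fold change was 0.33 ± 0.22 (SE; limma, adjusted p = 0.9999). In 1417602_at values lay between -0.23 and 0.19.

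Per3 had 6 probe sets, of which 3 varied together. The widest, 1458176_at, was at 0.52, -0.25 and -0.84 in p300+/- and at 0.37, -0.98 and 0.25 in Wild-type pools. In 1441445_at the values were 0.46, -0.037 and -0.83 in p300+/- and 0.31, -0.47 and 0.037 in Wild-type pools. A similar order at smaller size was seen in 1442243_at, at 0.39, -0.063 and -0.11 in p300+/- and 0.18, -0.26 and 0.063 in Wild-type pools. In these 3 probe sets p300+/- 1 was highest, Wild-type 1 next, and p300+/- 3 and Wild-type 2 were lowest, the same ends as in Dbp. The log2 fold changes were -0.069 ± 0.44, -0.10 ± 0.34 and 0.077 ± 0.18 (SE). The other 3 probe sets had ranges of 0.20 to 0.42 and other orders.

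The cryptochromes, the partners of PER in the repressor complex, differed from each other. Cry2 (1426383_at) was at 0.10, -0.079 and -0.49 in p300+/- and at 0.079, -0.59 and 0.10 in Wild-type pools, again lowest in p300+/- 3 and Wild-type 2. Its log2 fold change was -0.018 ± 0.23 (SE; 95% interval -0.56 to 0.53). Cry1 (1433733_a_at), whose RNA peaks later than that of the Per genes in most tissues, was at 0.022, 0.11 and -0.023 in p300+/- and at -0.022, 0.36 and -0.25 in Wild-type pools. Its p300+/- values all lay within the span of the Wild-type values, and the log2 fold change was 0.006 ± 0.17 (SE).

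Nr1d1 and Nr1d2 encode the REV-ERB repressors of Arntl. Nr1d1 (1426464_at) was at 0.21, 0.067 and -0.19 in p300+/- and at -0.067, -0.82 and 0.34 in Wild-type pools. Its log2 fold change was 0.21 ± 0.28 (SE) and became -0.11 without Wild-type 2. Nr1d2 had a variable probe set, 1416959_at, at 0.38, 0.79 and -0.71 in p300+/- and at 0.081, -0.72 and -0.081 in Wild-type pools. Its log2 fold change of 0.39 ± 0.39 (SE; 95% interval -0.51 to 1.30; limma, adjusted p = 0.9999) was the highest of the 23, and left-out arrays moved it between 0.075 and 0.83. The other Nr1d2 probe set, 1416958_at, ranged over 0.39 only. Both genes were lowest in Wild-type 2 and p300+/- 3 in the probe sets first named.

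Arntl and Clock form the activating arm. The Arntl probe set in the upper level class, 1425099_a_at, was at -0.017, -0.077 and 0.23 in p300+/- and at -0.065, 0.40 and 0.017 in Wild-type pools. It was thus highest in the arrays in which Dbp was lowest, with a log2 fold change between genotypes of -0.071 ± 0.16 (SE; 95% interval -0.45 to 0.30). The second Arntl probe set, 1457740_at, in the class from 4 to 8, did not share this order and was highest in Wild-type 1 (0.47) and lowest in Wild-type 2 (-0.32). Clock was read by 4 probe sets. Of these 1435775_at was at 0.04, -0.16 and 0.62 in p300+/- and at -0.04, 0.67 and -0.48 in Wild-type pools, highest in the same 2 arrays as Arntl. In contrast 1439314_at was lowest in p300+/- 3, at 0.12, -0.14 and -0.60 in p300+/- and 0.27, -0.12 and 0.24 in Wild-type pools. Its log2 fold change was -0.33 ± 0.21 (SE; 95% interval -0.82 to 0.15). The remaining Clock probe sets, 1418659_at and 1418660_at, gave log2 fold changes of -0.0084 ± 0.19 and -0.0076 ± 0.11 (SE).

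Whether the pools differed along the clock cycle was followed with an index, the mean over Per1, Per2, Per3, Nr1d1, Nr1d2 and Dbp minus the mean over Arntl and Clock, each gene being the mean of its probe sets. The index was 0.35, -0.0094 and -0.36 in p300+/- pools 1 to 3 and 0.10, -0.60 and 0.011 in Wild-type pools 1 to 3. The means were -0.0078 ± 0.35 in p300+/- and -0.16 ± 0.38 in Wild-type pools (SD, n = 3 each). The difference of 0.15 was smaller than the SD within either genotype, and single arrays left out moved it between -0.063, without Wild-type 2, and 0.33, without p300+/- 3, with -0.022 when p300+/- 1 was left out. Pools of 1 genotype thus differed more than the genotypes. No p is given for the index, because its genes were chosen with earlier results of these data known.

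**Figure D3:**
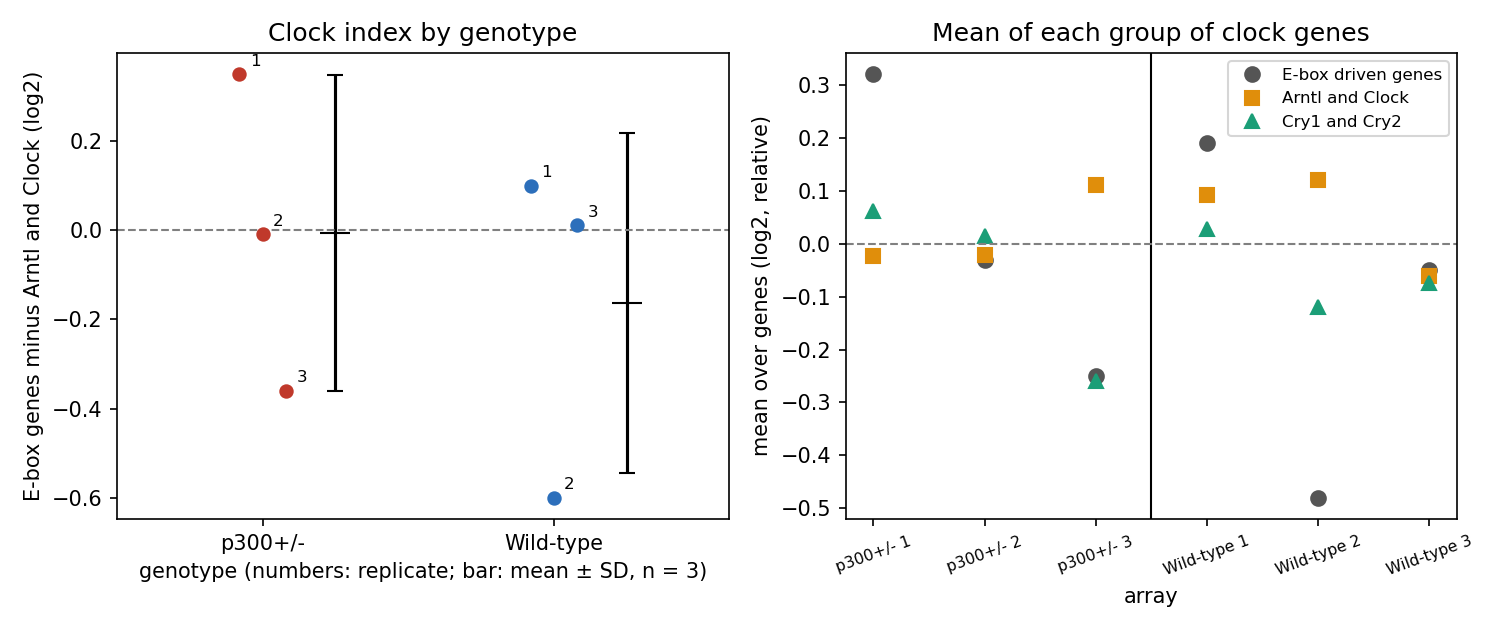
Left, the clock index (log2 scale) of each pool by genotype, with replicate numbers beside the points and the mean ± SD (n = 3) as a bar; right, on each array the mean of the 6 targets of CLOCK and BMAL1 in the index, labelled E-box driven genes (circles), of Arntl and Clock (squares) and of Cry1 and Cry2 (triangles). The index is lowest in Wild-type 2 (-0.60) and p300+/- 3 (-0.36) and highest in p300+/- 1 (0.35).

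Most of the spread of the index lay in the targets. Their mean was 0.32, -0.031 and -0.25 in p300+/- and 0.19, -0.48 and -0.05 in Wild-type pools. The mean of Arntl and Clock was -0.023, -0.022 and 0.11 in p300+/- and 0.092, 0.12 and -0.061 in Wild-type pools, so that it was above 0 on both arrays with the lowest targets and on Wild-type 1 too. With Arntl alone in the activating arm the index was -0.49 in p300+/- 3 and -0.51 in Wild-type 2, and between -0.0082 and 0.34 in the others. Such an index moves with the phase of a cycle and with its amplitude, and these cannot be told apart in 6 pools with no stated time of collection.

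The arrays at the low end of the index were those that stood apart over the whole transcriptome, and the part of that general difference in the clock values was not tested. In 9 of the 23 clock probe sets (39.1%) p300+/- 3 and Wild-type 2 were the 2 lowest arrays, which held for 15.8% of all probe sets. They were the 2 highest in 2 clock probe sets (8.7%), against 21.4% of all. Clock probe sets had a median range over the arrays of 0.79, beside 0.48 for all probe sets, which include the lowest level class. A wide range was not particular to them. Other lists, given below, had median ranges from 0.40 (CA2 and CA3 markers) to 2.77 (choroid plexus markers). For CA1 and microglia markers they were 0.97 and 0.98. A range of 1 or more was found in 9 clock probe sets (39.1%) and in 9.49% of all. Of those 9, 7 had the 2 arrays as their lowest (77.8%), beside 49.6% of all probe sets with such a range. These counts were chosen after the values were seen and describe these 6 arrays only. They count several probe sets of Per3 and of Dbp separately, and probe sets of a gene are not independent.

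Markers of cell types were set beside the index, since bulk RNA cannot tell fewer cells of a type from less RNA per cell. CA1 pyramidal markers were lowest on the same arrays, with means over 4 genes of 0.11, -0.079 and -0.34 in p300+/- and 0.16, -0.43 and 0.14 in Wild-type pools. Of these Mpped1 did not share the order, at -0.17 in p300+/- 3 and 0.028 in Wild-type 2. The mean over 5 endothelial markers was also lowest there, at -0.16 in p300+/- 3 and -0.26 in Wild-type 2, and lay between -0.014 and 0.30 on the other 4 arrays. Of these Cldn5, at 0.094 in p300+/- 3, and Slco1a4, at 0.011 in Wild-type 2, did not share the order. Means of blood and microglia markers were highest in p300+/- 3, at 0.61 and 0.23, and were 0.17 and 0.037 in Wild-type 2. Not all members shared this. The microglia marker Cx3cr1 was at -0.82 in p300+/- 3 and -0.65 in Wild-type 2, and the blood marker Hba-a1 at -0.10 in p300+/- 3. Choroid plexus markers were low in Wild-type 2 and not in p300+/- 3, where their mean was 0.35. The mean over 6 dentate granule cell markers was -0.32 in p300+/- 3 and 0.0039 in Wild-type 2, where its members went both ways. Prox1 was at -0.60 in p300+/- 3 and -0.39 in Wild-type 2, and C1ql2 at -0.43 and -0.55, while Tdo2 was at 0.63 and Trpc6 at 0.39 in Wild-type 2. Means over 6 astrocyte markers lay between -0.059 and 0.058. Markers of the suprachiasmatic nucleus and hypothalamus, the seat of the central clock, averaged 0.18 in p300+/- 3 and 0.15 in Wild-type 2 over 11 genes and -0.091 to -0.013 in the other 4 arrays. Vip, which hippocampal interneurons express too, was at 0.88 and 0.76 in those 2 arrays, and Avp, a defining marker, at -0.0078 and 0.059. Six6 was at 0.39 in p300+/- 3 and -0.10 in Wild-type 2. Of the 19 probe sets of this list, 2 were in the upper level class and 4 in the lowest. The part of these markers in the clock values was not tested. Of the hippocampal markers, Wfs1, Fibcd1 and Mpped1 (CA1), C1ql2 (dentate gyrus) and Rgs14 and Bok (CA2 and CA3) had all their probe sets in the upper level class, and Pex5l, Dsp, Tdo2 and Cpne4 had some of them there.

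**Figure D4:**
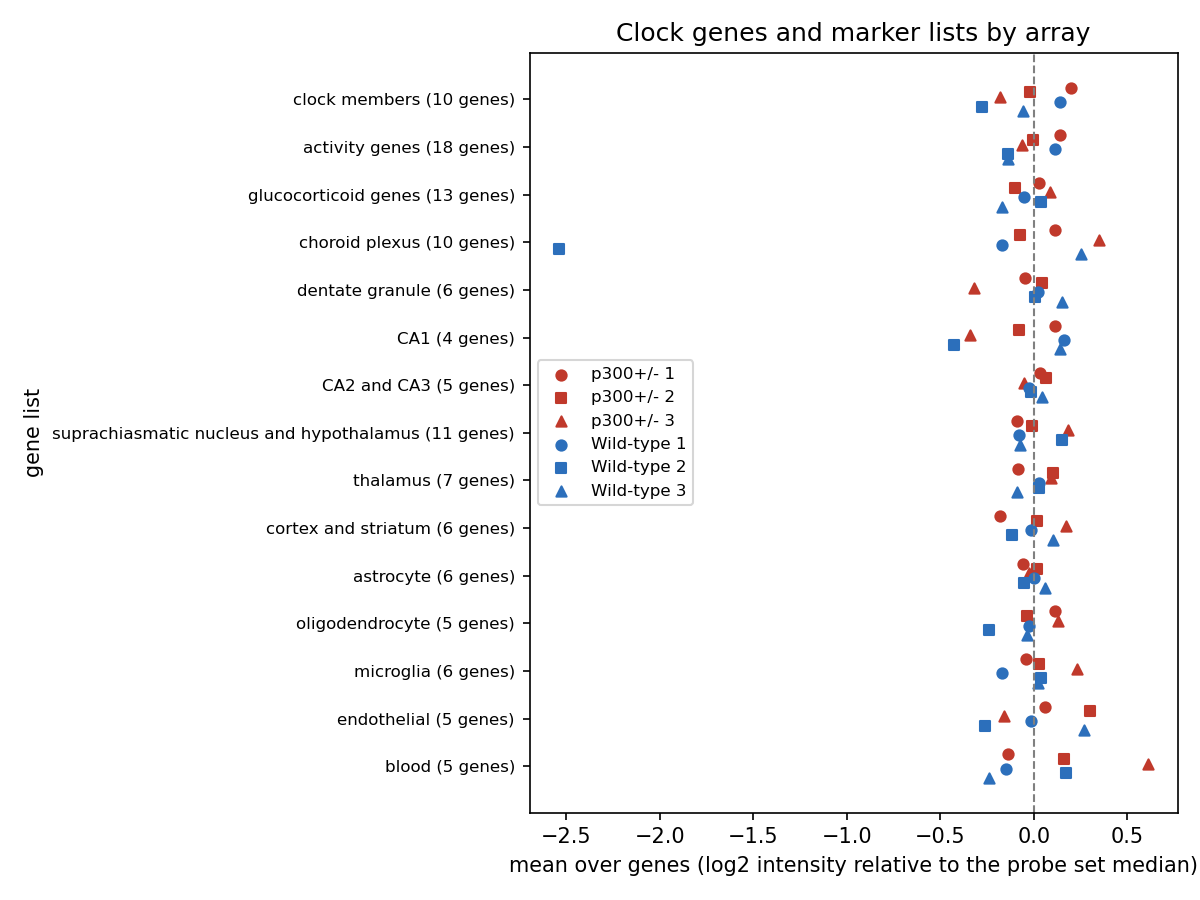
Mean over the genes of each list on each array (x axis, log2 intensity, median of each probe set taken off; red p300+/- and blue Wild-type arrays, symbols give the replicate), with the number of genes measured beside each list. Choroid plexus markers are at -2.54 on Wild-type 2, and the clock genes are lowest on Wild-type 2 (-0.28) and p300+/- 3 (-0.18).

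Per1 and Per2 are also induced by neuronal activity and by glucocorticoids. Genes induced by activity averaged 0.14, -0.0051 and -0.063 in p300+/- and 0.11, -0.14 and -0.14 in Wild-type pools over 18 genes. This mean was highest in p300+/- 1 and Wild-type 1, the pools in which Per1 was highest, and its members went different ways. Arc was highest there too (0.49 and 0.35), while Dusp1 and Ier2 were highest in p300+/- 3 (0.13 and 0.34) and Jun in p300+/- 2 (0.22). The part of activity in the Per1 values was not tested. None of the 31 probe sets of the activity genes passed, with 19 higher and 12 lower in p300+/- and a median log2 fold change of 0.071. The members with the smallest unadjusted p were Dusp1, a phosphatase of MAP kinases, at 0.24 ± 0.11, and the nuclear receptor gene Nr4a2 (1433422_at), at 0.16 ± 0.12 (SE). All other Nr4a2 probe sets went the opposite way, from -0.19 to -0.019. The genotypes did not overlap in 2 of the 31 probe sets, those of Dusp1 and Ier2 (6.45%, beside 5.39% of all probe sets). Glucocorticoid-induced genes averaged 0.025, -0.10 and 0.085 in p300+/- and -0.056, 0.035 and -0.17 in Wild-type pools over 13 genes, and none of their 33 probe sets passed. Their mean was lowest in Wild-type 3 and p300+/- 2, the pools in which Per1 was lowest, and members went different ways. Sgk1 was lowest there too (-0.65 and -0.64), while Fkbp5 was lowest in p300+/- 3 (-0.21) and Klf9 in Wild-type 2 (-0.54). The part of glucocorticoids in the Per1 values was not tested either. Zbtb16, a zinc finger gene, was at -0.35 ± 0.16, and Ddit4, an inhibitor of mTOR signalling, at 0.54 ± 0.28 (SE), with -1.07 in Wild-type 1.

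Other genes of the loop were read from a list of 12, of which 11 had 28 probe sets. None passed, 13 were higher and 15 lower in p300+/-, and the median log2 fold change was -0.0059. The smallest unadjusted p belonged to Rorb and Rora, nuclear receptors that activate Arntl through the ROR element. Rorb 1455799_at was at -0.27, -0.47 and -0.10 in p300+/- pools, against 0.12, 0.10 and 0.12 in Wild-type pools. Its log2 fold change was -0.39 ± 0.13 (SE; limma, adjusted p = 0.9999). Rora 1436326_at was at -0.29, -0.43 and -0.027 in p300+/-, against 0.10, 0.027 and 0.22 in Wild-type pools. The log2 fold change there was -0.37 ± 0.14 (SE; limma, adjusted p = 0.9999). The other Rorb probe sets were at -0.23 ± 0.14 (1439862_at) and 0.15 ± 0.14 (1425162_at; SE), the first in the same direction and the second in the opposite one. The 8 other Rora probe sets ran from -0.12 to 0.19. Timeless, known for DNA replication and for binding clock proteins, was at -0.29 ± 0.16 in 1417587_at and -0.27 ± 0.17 (SE) in 1417586_at. The genotypes did not overlap in these 3 probe sets of Rorb, Rora and Timeless 1417587_at, or 10.7% of the list, beside 5.39% of all probe sets.

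A few further clock genes were picked after their values were seen because they bear on the order of the arrays. In part that order was shared by modifiers of clock proteins, given below. Tef, a PAR bZIP relative of Dbp, was at 0.21, 0.57 and -1.22 in p300+/- and -0.14, -2.06 and 0.14 in Wild-type pools in 1450184_s_at. Its probe set 1424175_at, in the upper level class, ran the same way at 0.083, 0.065 and -0.32 in p300+/- and 0.04, -0.29 and -0.04 in Wild-type pools, while 1438033_at did not. Nfil3, the repressor that competes with DBP for D-boxes, went the opposite way and was highest in p300+/- 3 and Wild-type 2. It was at -0.026, -0.25 and 0.62 in p300+/- and 0.026, 0.42 and -0.076 in Wild-type pools. Usp2, a clock-controlled ubiquitin protease (1417168_a_at), was at 0.40, -0.11 and -0.46 in p300+/- and 0.21, -1.18 and 0.11 in Wild-type pools. Ciart, which encodes the repressor CHRONO, followed the order of Per1 more than that of Dbp, at 0.47, -0.087 and 0.087 in p300+/- and 0.30, -0.23 and -0.45 in Wild-type pools.

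Kinases, ubiquitin ligases and other modifiers of clock proteins, 14 of 16 listed genes with 51 probe sets, gave 23 higher and 28 lower values and none that passed. The smallest unadjusted p belonged to the F-box gene Fbxl21 at 0.29 ± 0.17, the casein kinase gene Csnk1e (1435373_at) at 0.17 ± 0.12 and Csnk2a2 (1453099_at) at -0.22 ± 0.16 (SE). The other Csnk1e probe sets were at 0.003 and 0.39, and the other Csnk2a2 probe sets ran from -0.051 to 0.052. The mean over the 14 modifier genes was -0.12 in p300+/- 3 and -0.22 in Wild-type 2, and between 0.0078 and 0.062 on the other arrays. Fbxw11 1425461_at was at -0.83 and -1.69 on those arrays, and Csnk1d 1418889_a_at at -0.71 and -1.33. In contrast Csnk2a1 1419036_at was highest there, at 0.48 and 0.45. Output genes, 9 of 11 with 20 probe sets, gave 9 higher and 11 lower values and none that passed. There the cell cycle kinase gene Wee1 was at 0.30 ± 0.18, Klf9 at 0.35 ± 0.25 and the glycerol phosphate acyltransferase gene Gpam at 0.42 ± 0.35 (SE). In these output probe sets, Wee1 1416774_at, Klf9 1436952_at and Gpam 1425834_a_at, Wild-type 2 was lowest and p300+/- 3 next, as in Dbp. In contrast Wee1 1416773_at, Gpam 1419499_at and Klf9 1452723_at were highest in Wild-type 2. Their log2 fold changes were -0.13 ± 0.16, -0.03 ± 0.11 and 0.037 ± 0.19 (SE). Of the further Klf9 probe sets, 1422264_s_at, 1428289_at and 1436763_a_at shared the order of Dbp, the first with a log2 fold change of -0.13 ± 0.33 (SE).

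The genes most like Dbp over the 6 arrays were found by the root mean square difference from its mean profile on the deposited scale. They were Trmt13 (1453824_at), a tRNA methyltransferase gene, at a difference of 0.07, Nisch (1433758_at), the nischarin gene, at 0.11, and Clpx (1439342_at), a mitochondrial protease subunit gene, at 0.11. Nisch was at 0.50, -0.083 and -0.83 in p300+/- and at 0.44, -1.01 and 0.083 in Wild-type pools. None of the 3 is a known core clock gene, and their closeness to Dbp is over 6 arrays only. The mean Arntl profile ranged over 0.28, below the limit of 0.5 set for this search.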

How the data were processed

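Per the labels' protocols, hippocampal RNA of single animals was purified (Trizol, then RNeasy) and pooled, and the authors used GeneSpring GX for normalization. How probes were summarized, and the program's version, is not stated in the sources used here. The deposited values, taken as log2, are differences from each probe set's median over the 6 arrays (0 within 1e-06). Base 2 is not stated and was taken from the binary grid of the values, which also gave level classes (right for 98.7% of 17898 simulated probe sets). A fold change, unlike its direction, depends on that base.

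After 64 control probe sets were left out, 45037 remained. They were fitted by lmFit and eBayes of limma 3.58.1 (R 4.3.3), two-sided, as p300+/- minus Wild-type over 6 arrays without covariates, with Benjamini-Hochberg adjustment over all of them and a threshold of 0.05. The script was tested on simulated data. Of these, 34945 had a single gene symbol in the platform annotation, 932 had several and 9160 had none. Symbols were updated by gene identifier to RefSeq (GRCm38.p6), and 34741 matched. The values name no build, so that table gave names and promoter sequences only.

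All clock probe sets were named. Of each further clock list the 3 genes of smallest unadjusted p were named, and 2 of the activity and glucocorticoid lists. Pdk4 and Klf9 belong to both the output and the glucocorticoid list. The members and lists were chosen with earlier results of these data known. Labels describe the 3 pools of a genotype as independent biological replicates. No label gives a batch. Alternatives comprised normalization, moderation, array weights, the replicate block, probe set filters, left-out arrays and the genes of the index. Figures were drawn with matplotlib 3.10.9.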

Additional observations from a re-analysis of the deposited data

How the results depend on the processing

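No clock probe set, no probe set of the other clock lists and no probe set of the whole array passed under any alternative that was run (0 in each), a threshold of 0.1 included. The number of probe sets with unadjusted p under 0.05 was 550, 475 to 1151 with 1 array left out, 1632 with array weights and 604 with the replicate block, and at most 1 of the 23 clock probe sets under any of these. The index difference of 0.15 stayed between 0.10 and 0.16 under quantile normalization, other genes and probe sets and without p300+/- 3 and Wild-type 2 (0.11). It ran from -0.063 to 0.33 with 1 array left out. Median centring could not move the index, which is a difference within an array. Leaving out the lowest level class could not either, since no clock probe set was in it. The count of clock probe sets whose genotypes do not overlap was 1, 0 after quantile normalization or median centring, 1 to 3 with 1 array left out, where 12.1% to 18.1% of all probe sets did not overlap, and 6 (28.3% of all probe sets) without p300+/- 3 and Wild-type 2, where fewer arrays leave less room to overlap. Replicate numbers are not said to pair the pools. Deviations from the group means correlated at 0.61, -0.23 and -0.47 over all probe sets for equal numbers 1, 2 and 3. Across numbers the correlation was 0.65 for p300+/- 3 with Wild-type 2 and 0.37 for p300+/- 2 with Wild-type 3. The replicate block, which joined equal numbers, called 0 probe sets, and a block of other pairs was not run.

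Of the 23 log2 fold changes, 5 kept their sign under every alternative run. The sign changed with array weights for Per1 1449851_at (-0.21), Per2 1457350_at (-0.069), Arntl 1425099_a_at (0.017), Arntl 1457740_at (-0.23), Clock 1418659_at (0.11), Clock 1418660_at (0.031), Nr1d2 1416958_at (0.00028), Dbp 1438211_s_at (-0.13); without p300+/- 3 and Wild-type 2 together for Per1 1449851_at (-0.029), Per2 1417602_at (0.022), Per3 1441445_at (0.035), Arntl 1457740_at (-0.18), Clock 1418659_at (0.093), Clock 1418660_at (0.064); after quantile normalization for Clock 1418659_at (0.036), Clock 1418660_at (0.0097). With 1 array left out the sign changed in 18, and the log2 fold changes ran as follows: Per1 1449851_at -0.18 to 0.38, Per2 1417602_at -0.20 to 0.015, Per2 1457350_at -0.27 to 0.29, Per3 1421087_at -0.10 to 0.11, Per3 1441445_at -0.40 to 0.25, Per3 1442243_at -0.081 to 0.17, Per3 1458176_at -0.50 to 0.26, Cry1 1433733_a_at -0.13 to 0.17, Cry2 1426383_at -0.25 to 0.15, Arntl 1425099_a_at -0.16 to 0.069, Arntl 1457740_at -0.10 to 0.29, Clock 1418659_at -0.13 to 0.14, Clock 1418660_at -0.054 to 0.058, Clock 1435775_at -0.14 to 0.43, Nr1d1 1426464_at -0.11 to 0.47, Nr1d2 1416958_at -0.18 to 0.013, Dbp 1418174_at -0.069 to 0.53, Dbp 1438211_s_at -0.33 to 0.48. The cause was not tested. Filters on absolute level could not be made from centred values, and the level class stood in for them.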
